A study of Mus musculus with 7 samples.

Results

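The 9 GABA receptor genes Gabra2, Gabra4, Gabra5, Gabrb1, Gabrb2, Gabrg3, Gabrd, Gabbr1 and Gabbr2 held 85 of the 133337 regions enriched for 5-methylcytosine (5mC) in cultured mouse hippocampal neurons. A region was counted when its mm10 interval overlapped the RefSeq gene body, extended by 1 kb at each end, by at least 1 bp. The neurons came from E18.5 C57BL/6J embryos and were kept for 11 days in culture, with the mitotic inhibitor AraC in the medium. DNA carrying 5mC was captured with an antibody and sequenced (MeDIP-seq) in 3 libraries of neurons depolarised with 55 mM KCl for 4 h and in 3 libraries of untreated neurons. A pooled input library was not analysed here. Whether replicate libraries stem from separate cultures is not stated in the labels, so p-values reflect library-to-library spread only, which may be technical. The comparison asks which DNA methylation targets respond to neuronal activity.

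GABA is the main inhibitory transmitter of the mature brain. GABA-A receptors are chloride channels built from α, β and γ or δ subunits, encoded by the Gabra, Gabrb, Gabrg and Gabrd genes, most of which lie in clusters. GABA-B receptors couple to G proteins and join a Gabbr1 product, which binds GABA, to a Gabbr2 product, which activates the G protein. 5mC in mammals lies mostly at CpG sites, is usually sparse at CpG-rich promoters of active genes and is common in gene bodies. MeDIP enrichment depends on how many methylated CpG sites a fragment carries, so the height of a region cannot tell the number of CpG sites, their methylation and the share of cells that carry it apart. The data hold no expression values, and the labelled cell type was not checked against marker expression.

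The KCl libraries held 93470, 60949 and 34834 called intervals, and the untreated libraries 87151, 87302 and 72947. Read totals are not given, so depth is unknown. KCl library 3 stood apart with the fewest intervals, and its median height was lowest, at 14 against 15 or 16 in the other libraries. Heights are those of the deposited summits, the highest per region and library, and are whole numbers of at least 6.

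Regions were very unevenly spread over the receptor genes. Gabbr2 held 33 and Gabrg3 21, which together made 63.5% of the 85. Gabrb1 held 10, Gabrb2 8, Gabra5 6, Gabbr1 3, Gabrd 2, and Gabra2 and Gabra4 1 each. Of the 85 regions 84 lay entirely inside the gene body, and 3 came within 1 kb of a gene end. Region length was 339 bp at the median (quartiles 282 and 434 bp), against 357 bp over all regions (284 and 450 bp). The mean height over the libraries that called a region was 13.25 at the median, against 13 over all regions. Both measures were thus close to those of the whole set.

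**Figure D1:**
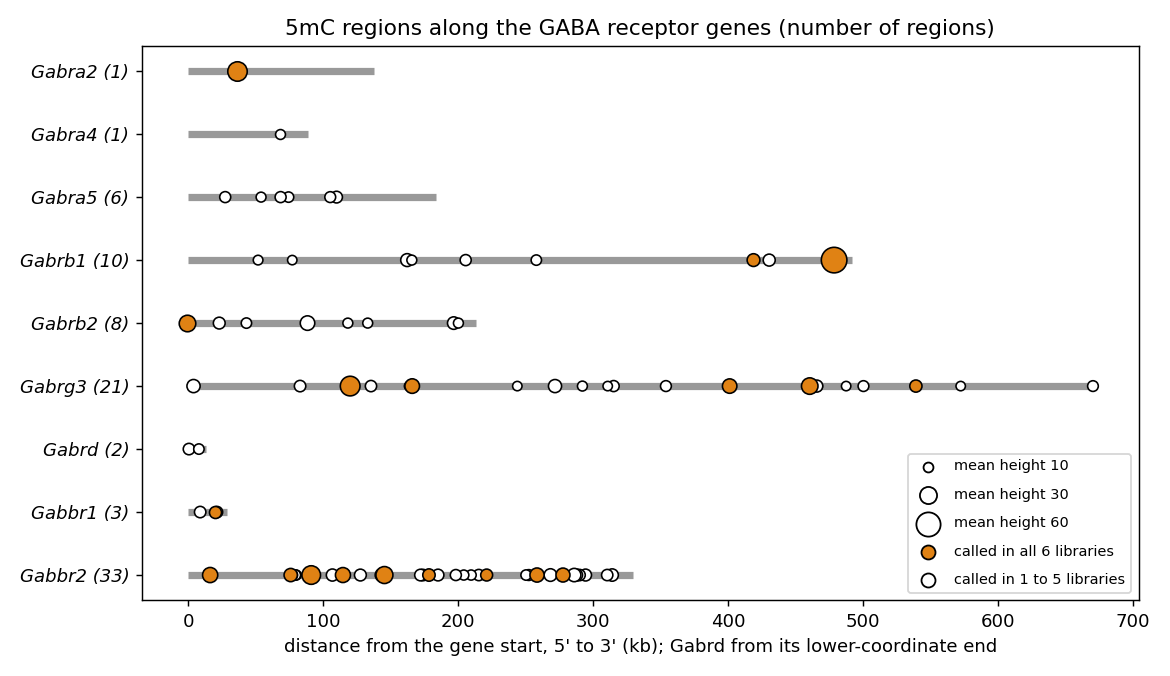
Regions along each gene, drawn from the 5′ to the 3′ end in kb (Gabrd from its lower-coordinate end), with the number of regions after the gene name. Circle area follows the mean height over the libraries that called the region, and filled circles were called in all 6 libraries. Gabbr2 is filled along most of its length with 33 regions, and the largest circle lies near the 3′ end of Gabrb1.

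In RefSeq coordinates on mm10, the genes lie as follows. Gabra2 (gene ID 14395) runs over chr5:70958392-71095849 on the minus strand, and Gabra4 (14397) over chr5:71569734-71658308 on the minus strand. Gabrb1 (14400) follows over chr5:71657921-72149572 on the plus strand. Gabrg3 (14407) runs over chr7:56716463-57387215 and Gabra5 (110886) over chr7:57407669-57591016, both on the minus strand. Gabrb2 (14401) runs over chr11:42419515-42632591 and Gabbr1 (54393) over chr17:37045966-37074305, both on the plus strand. Gabrd (14403) runs over chr4:155384979-155398098, and Gabbr2 (242425) over chr4:46662318-46991714 on the minus strand. Exons and introns were not used here, so a region inside a gene body is not assigned to either.

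Set against gene length, Gabbr2 was dense in regions, Gabra2 and Gabra4 were sparse, and Gabrg3 was close to the median of genes of like length. Gabbr2 had 9.96 regions per 100 kb, more than 83.7% of the 649 protein-coding genes within 1.5 times its length, whose median was 4.83. The shorter genes Gabrd and Gabbr1 had 13.2 and 9.89 per 100 kb, where genes of like length had medians of 7.18 and 6.20. Of genes of like length 69.8% and 67.6% had fewer, and the values of Gabrd and Gabbr1 rest on 2 and 3 regions. Gabrb2 had 3.72, Gabra5 3.24, Gabrg3 3.12 and Gabrb1 2.03 per 100 kb, where the medians of genes of like length were 5.55, 5.64, 3.38 and 4.13. The shares of like-length genes with fewer were 34.2% for Gabrb2, 28.9% for Gabra5, 44.9% for Gabrg3 and 23.3% for Gabrb1. Gabra4 had 1.10 and Gabra2 0.717 per 100 kb, and 9.18% and 3.85% of genes of like length had fewer. These densities pool the 6 libraries and carry no replicate error, and no test was made. CpG density along these genes was not available here, and its part in the differences was not tested.

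**Figure D2:**
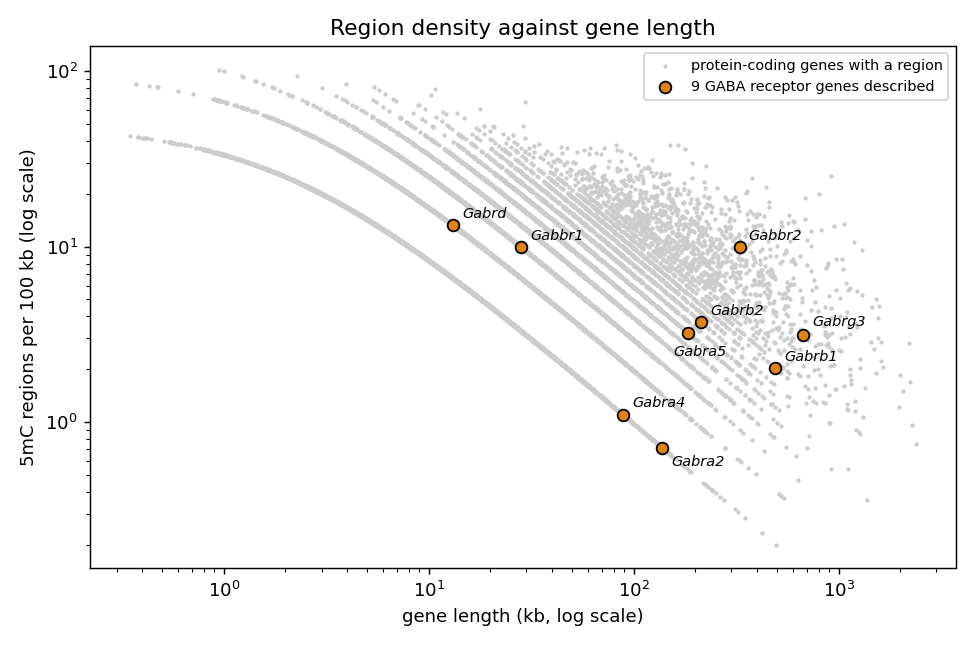
Regions per 100 kb against gene length, both on log scales. Filled circles are the 9 GABA receptor genes, and grey points all protein-coding genes with a region. Gabbr2, at 9.96, lies above the GABA-A subunit genes of similar length, and Gabra2, at 0.717, lies lowest of the 9.

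No listed promoter of these genes was covered by a region. RefSeq's GRCm38.p6 table, on the same chromosome coordinates as mm10, gave 11 start sites for 8 of the 9 genes, each with a window of 300 bp from 250 bp before to 50 bp after the start. Gabrd had no entry. Of the 11 windows 0 overlapped a region, against 1593 of all 32851 windows (4.85%). The sequences of 4 windows are shown because they belong to the genes with the most regions (Gabbr2 and Gabrg3), the highest region (Gabrb1) and the region nearest to a start (Gabrb2). Each is written 5′ to 3′ on the strand of its gene, with every CG in capitals. The motif searched was CG, which reads the same on both strands and is present in 94.6% of all windows.
Gabbr2 (chr4:46991665-46991964, minus strand): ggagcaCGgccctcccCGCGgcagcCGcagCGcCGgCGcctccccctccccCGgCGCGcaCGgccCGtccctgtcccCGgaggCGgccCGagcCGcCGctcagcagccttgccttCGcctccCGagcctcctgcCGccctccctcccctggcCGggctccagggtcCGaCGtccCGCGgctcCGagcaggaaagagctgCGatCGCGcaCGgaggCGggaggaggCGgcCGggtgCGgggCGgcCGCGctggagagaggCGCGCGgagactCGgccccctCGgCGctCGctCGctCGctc
Gabrg3 (chr7:57387166-57387465, minus strand): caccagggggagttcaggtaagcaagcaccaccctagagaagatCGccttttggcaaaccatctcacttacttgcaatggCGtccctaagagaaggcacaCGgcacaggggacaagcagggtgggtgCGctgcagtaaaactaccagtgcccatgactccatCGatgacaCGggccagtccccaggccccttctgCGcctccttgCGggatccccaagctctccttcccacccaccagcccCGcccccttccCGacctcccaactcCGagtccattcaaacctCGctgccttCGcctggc
Gabrb1 (chr5:71657671-71657970, plus strand): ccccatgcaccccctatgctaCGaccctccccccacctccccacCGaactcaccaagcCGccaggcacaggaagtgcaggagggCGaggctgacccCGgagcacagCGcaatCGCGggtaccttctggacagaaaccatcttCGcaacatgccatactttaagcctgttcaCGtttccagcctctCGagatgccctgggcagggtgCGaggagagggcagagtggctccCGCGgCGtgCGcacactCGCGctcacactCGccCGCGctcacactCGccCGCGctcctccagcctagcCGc
Gabrb2 (chr11:42420190-42420489, plus strand): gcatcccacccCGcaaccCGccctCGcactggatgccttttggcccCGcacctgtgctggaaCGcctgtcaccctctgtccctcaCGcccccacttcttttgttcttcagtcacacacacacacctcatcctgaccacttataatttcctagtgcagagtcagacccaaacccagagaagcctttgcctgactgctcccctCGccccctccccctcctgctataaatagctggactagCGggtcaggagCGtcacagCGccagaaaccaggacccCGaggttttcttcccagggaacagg

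The Gabbr2 window held 46 CG, more than 98.4% of all windows. The region nearest to it, called in 1 library, lay 5.67 kb away, outside the gene and its 1 kb extension. The nearest of the regions counted for Gabbr2 lay 15.9 kb from the start. The Gabrb1 window shown held 25 CG, and so did that of Gabra2. Another Gabrb1 window held 9 and lay 9.52 kb from the nearest region. The windows of Gabbr1, Gabrg3, Gabra5 and Gabra4 held 18, 13, 13 and 12, and the Gabrb2 window shown held 11. Over all windows the median was 7. The distance from a window to the nearest region was 1.18 kb at Gabrb2, 3.64 kb at Gabrg3, 6.26 kb at Gabra5, 8.59 kb at Gabbr1 and 35.7 kb at Gabra2. Gabra4 and Gabrb1 are transcribed away from each other from starts so close that their annotated gene bodies overlap by 388 bp. Around these starts no region was called over 119 kb, from the single Gabra4 region to the first Gabrb1 region.

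Read against all promoters with like CG counts, an empty window was the usual case. Regions covered 11.4% of all windows with 9 to 14 CG, where 7 of the 11 GABA receptor windows fell, 4.08% of those with 15 to 24 CG, and 1.80% of those with 25 or more. Inside the gene bodies of the 8 genes with a listed strand, the 82 regions were split over the 5′, middle and 3′ parts of equal length as 22, 31 and 29. Gabbr2 had 7, 14 and 12, and its first region was centred at 4.92% of the gene length. Gabrg3 had 6, 7 and 8. The split over all genes is not given here, and no test of the split was made.

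**Figure D3:**
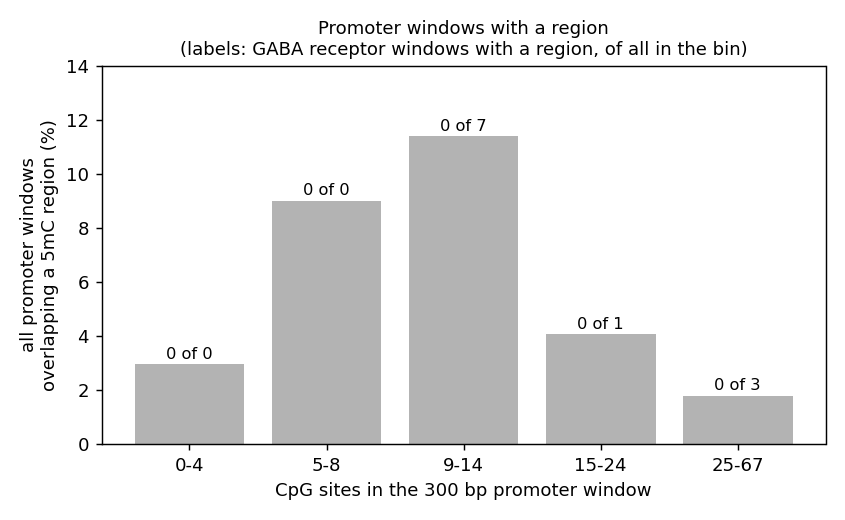
Share of all RefSeq promoter windows of 300 bp that overlap a 5mC region, in percent, by the number of CpG sites in the window. The labels give the GABA receptor windows with a region out of those in the bin, which is 0 in every bin, and the bar is highest at 11.4% for 9 to 14 CpG sites.

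Among the 3 α subunit genes described here, Gabra2, whose subunit is found at inhibitory synapses, carried a strong region and the others only weak ones. The single Gabra2 region (chromosome 5, 71059382 to 71060106) had heights of 45, 43 and 19 in the KCl libraries, and 39, 47 and 39 in the untreated libraries. It was called in all 6 libraries and was higher than 82.5% of the 27310 regions shared by all of them. KCl library 3 was far below the other 5, and the groups overlapped. Gabra4, a partner of the δ subunit in extrasynaptic receptors, had 1 region (chromosome 5, 71590195 to 71590405), called in 0 of 3 KCl libraries and in 1 untreated library at a height of 10. Gabra5, which encodes a largely extrasynaptic subunit abundant in the hippocampus, had 6 regions, each called in 5 or fewer libraries, with mean heights of 10 to 14. Its region with the highest mean (chromosome 7, 57480962 to 57481281) stood at 14 in KCl library 1 and at 14 in untreated library 1. It was not called in the other 4. Other Gabra5 regions reached 17 in KCl library 1 and 16 in untreated library 1.

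The highest region of all 85 lay in Gabrb1, a β subunit gene, whose product forms the GABA binding site together with an α subunit. This region (chromosome 5, 72136330 to 72136909) had heights of 79, 63 and 44 in the KCl libraries, and 70, 89 and 56 in the untreated libraries. It was the highest of the 85 regions in each library, exceeded 96.3% of shared regions, and lay at 97.4% of the gene length from the start. The groups overlapped. Gabrb1 also held a region called in untreated libraries alone (chromosome 5, 72088304 to 72088725), with no interval in any KCl library and heights of 11, 17 and 16 in the untreated libraries.

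Gabrb2, another β subunit gene, had its highest region just outside the gene (chromosome 11, 42418518 to 42419007). It lay 508 bp before the annotated gene body and 1.43 kb before the nearest listed start, and overlapped the long noncoding RNA gene Gm34591. Heights there were 35, 29 and 12 in the KCl libraries, and 31, 42 and 19 in the untreated libraries. The value of KCl library 3 was the lowest, untreated library 3 came next, and the groups overlapped. It was the only region of Gabrb2 called in all 6 libraries.

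Gabrg3 encodes a γ subunit, the class that takes part in the benzodiazepine site. Every library called 5 of its 21 regions, and 7 were called in just 1. The highest (chromosome 7, 57267041 to 57267442) had heights of 51, 37 and 20 in the KCl libraries, and 43, 40 and 46 in the untreated libraries. KCl library 1 was above and KCl libraries 2 and 3 were below all untreated libraries. A weak region 49 bp inside the 3′ end of the gene (chromosome 7, 56716512 to 56716794) had a height of 11 in KCl library 2, and of 13 and 11 in untreated libraries 2 and 3.

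Gabrd, whose δ subunit serves tonic inhibition, had 2 weak regions. The higher one (chromosome 4, 155385246 to 155385696), 267 bp inside the lower-coordinate end of the gene, had heights of 14 and 12 in KCl libraries 1 and 2, and of 14 in untreated library 2. The other, which also overlaps Cfap74, was called in untreated library 1 alone, at a height of 11.

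Of the GABA-B genes, Gabbr1 had 3 low regions and Gabbr2 a long series. The highest of Gabbr1 (chromosome 17, 37065728 to 37066188) had heights of 16, 17 and 11 in the KCl libraries, and 14, 19 and 12 in the untreated libraries, which overlapped, and it stood above 6.89% of shared regions. The 33 Gabbr2 regions had a median spacing of 5.87 kb and mean heights from 10 to 35.3, with 9 called in all 6 libraries. The highest (chromosome 4, 46900296 to 46900913) had heights of 41, 29 and 22 in the KCl libraries, and 41, 40 and 39 in the untreated libraries. The untreated values lay within 2 units of each other, while the KCl values spread over 19, and KCl library 1 matched the highest untreated one. Another (chromosome 4, 46914618 to 46914901) had no interval in any KCl library, and heights of 15, 10 and 11 in the untreated libraries.

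How often these regions were called followed the library as a whole. The KCl libraries called 59, 39 and 23 of the 85, and the untreated libraries 60, 58 and 45. As shares these were 69.4%, 45.9% and 27.1% with KCl, and 70.6%, 68.2% and 52.9% untreated. Over all regions the shares were 69.4%, 45.0% and 25.7% with KCl, and 64.3%, 64.7% and 53.9% untreated. The mean was 40.3 ± 18.0 regions with KCl and 54.3 ± 8.14 untreated (SD, n = 3 each), a difference of -14 that is smaller than the SD of the KCl group. With the same number of highest intervals kept in each library, 19, 17 and 23 of these regions were called in the KCl libraries, and 20, 20 and 21 in the untreated libraries.

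In Gabbr2 alone the KCl libraries called 24, 17 and 13 regions, and the untreated libraries 26, 28 and 20. In Gabrg3 these counts were 14, 9 and 5 with KCl, and 16, 12 and 12 untreated. A call in every library was found for 19 of the 85 regions (22.4%) and a call in just 1 for 25 (29.4%), beside 20.5% and 29.3% of all regions. Called in all 3 untreated and no KCl library were 2 regions, those of Gabrb1 and Gabbr2 described above, where 1.01% of all regions were. In the opposite direction there were 0, beside 0.0367%. Neither of the 2 remained so with rank-matched intervals: the Gabrb1 region was then kept in 1 untreated library and the Gabbr2 region in none. Of the 58170 regions of the whole table left in that setting, 256 were limited to the 3 untreated libraries and 231 to the 3 KCl libraries. With every interval these counts were 1349 and 49 of 133337, so the excess on the untreated side was mostly lost across the whole table too.

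**Figure D4:**
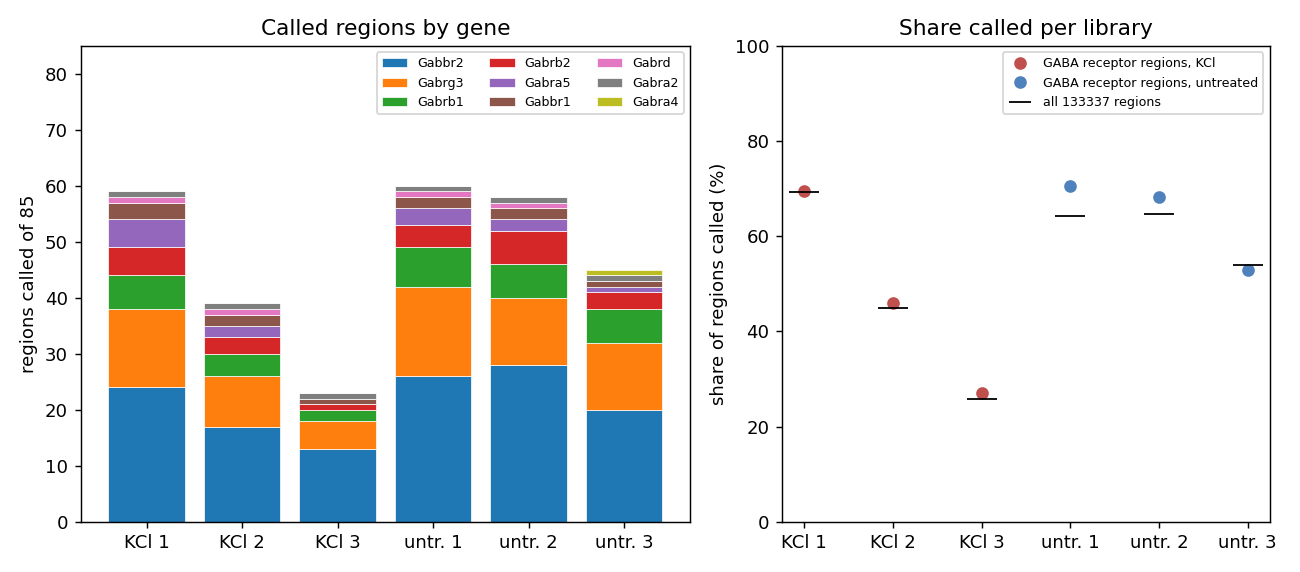
Left, the number of the 85 regions called in each library, stacked by gene, with KCl libraries before untreated ones. Right, the share called in percent as points, with the share of all regions in that library as a black bar. The points follow the bars, from 27.1% in KCl library 3 to 70.6% in untreated library 1.

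No change of 5mC enrichment with KCl passed the threshold at any GABA receptor region. Heights of regions called in all 6 libraries were compared as log2(height + 1) with limma over the whole table, where 20537 regions had a mean height of at least 18.7. Regions without a call in every library could not enter this test, which left 13 of the 85, in Gabra2, Gabrb1, Gabrb2, Gabrg3 and Gabbr2, while 6 shared regions were below the height filter and 66 lacked a call somewhere. By limma with Benjamini-Hochberg adjustment at 0.05, 0 of the 13 rose and 0 fell, beside 0% of all regions in either direction. Unadjusted, 0 of the 13 rose and 1 fell at the same threshold, beside 0% and 1.12% of all regions, and after median centring 0 of the 13 did in either direction, beside 1.97% higher and 1.67% lower of all regions.

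Changes are given relative to the median of all tested regions, which was -0.25 on the log2 scale, and have limma SEs. A p named as deposited tests the change before that median was taken off, and a centred p the change after it. The region with the lowest p lay in Gabrg3 (chromosome 7, 56985699 to 56986178). Its heights were 25, 12 and 12 in the KCl libraries, and 24, 24 and 31 in the untreated libraries. KCl libraries 2 and 3 were below all untreated libraries, and KCl library 1 was not. The mean was 16.3 ± 7.51 with KCl and 26.3 ± 4.04 untreated (SD, n = 3 each). The log2 change was -0.73 as deposited (limma unadjusted p = 0.0404, adjusted p = 0.932). Relative to the median region it was -0.48 (limma SE 0.24; centred unadjusted p = 0.0538, adjusted p = 1.00). Without untreated library 2 it was -0.62, and without untreated library 3, which has the highest value, it was -0.28.

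In Gabbr2 the tested region with the lowest p (chromosome 4, 46876849 to 46877342) overlapped the long noncoding RNA gene Gm32208. Its heights were 20, 22 and 13 in the KCl libraries, and 22, 32 and 29 in the untreated libraries. Its relative log2 change was -0.34 (limma SE 0.22; adjusted p = 0.932 as deposited). It was -0.20 without KCl library 1 and -0.21 without untreated library 3. The groups met at a height of 22. The highest Gabbr2 region averaged 30.7 ± 9.61 with KCl and 40.0 ± 1.00 untreated (SD, n = 3 each), a relative log2 change of -0.17 (limma SE 0.17), which was -0.0996 without untreated library 3. In Gabra2 the means were 35.7 ± 14.5 with KCl and 41.7 ± 4.62 untreated, with a relative log2 change of -0.06 (limma SE 0.18).

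The means of the high Gabrb1 region were 62.0 ± 17.5 with KCl and 71.7 ± 16.6 untreated (SD, n = 3 each), with a relative log2 change of 0.03 (limma SE 0.13). Before Gabrb2 they were 25.3 ± 11.9 with KCl and 30.7 ± 11.5 untreated, with a relative log2 change of -0.08 (limma SE 0.22). At the highest Gabrg3 region they were 36.0 ± 15.5 with KCl and 43.0 ± 3.00 untreated, with a relative log2 change of -0.10 (limma SE 0.18). Each of these changes was smaller than its SE. For them, for Gabra2 and for the highest Gabbr2 region limma gave adjusted p = 0.932 as deposited.

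**Figure D5:**
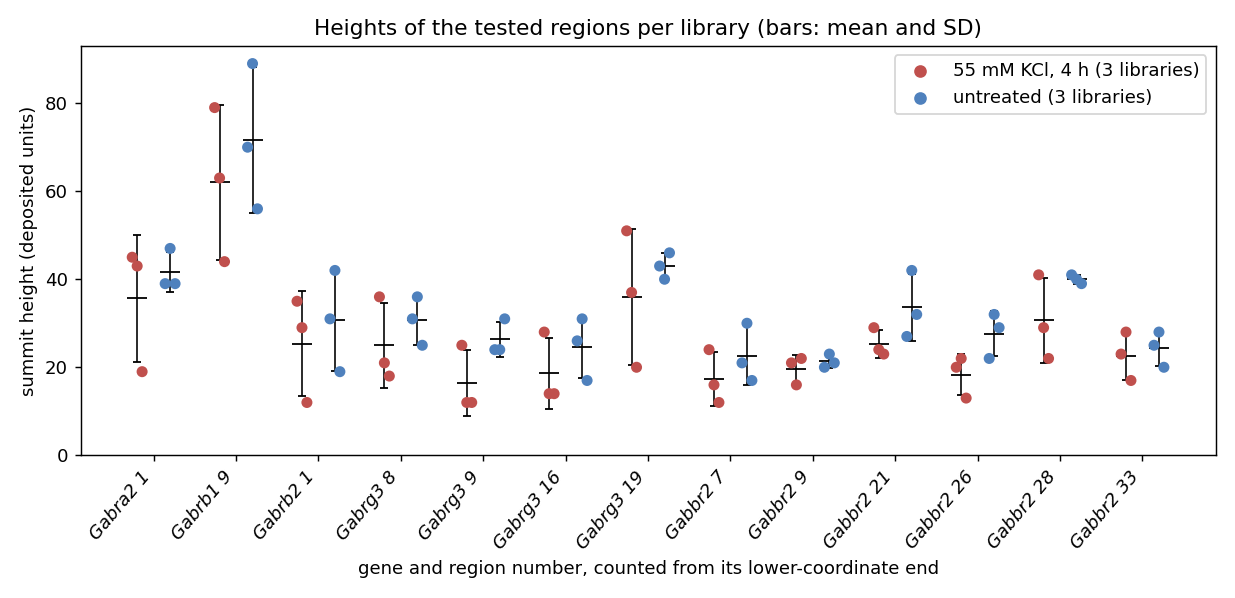
Summit heights of the 13 tested regions, one point per library, with KCl libraries left of untreated ones and bars for the mean and SD. Regions are numbered along each gene from its lower-coordinate end. The highest region, Gabrb1 9, has heights of 79, 63 and 44 with KCl and 70, 89 and 56 untreated, and the groups overlap in each of the 13.

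Of the 13 tested regions 10 lay below the median region. Their relative log2 changes had a median of -0.10 and a range from -0.48 to 0.13, where all regions had 50% below and 0 as their median by construction. These 13 come from 5 genes, and 6 of them from Gabbr2. Without KCl library 3 it was 11 of 18, and without untreated library 2 it was 9 of 13. Complete separation of the groups was seen in 0 of the 13, beside 4.14% of all tested regions with all KCl heights below all untreated heights and 0.0292% with all above. Among the 19 shared regions it was seen in 2, both in Gabbr2 and both lower with KCl, beside 4.66% of all shared regions, and 0 were higher, beside 0.124%. Their values were known when they were chosen for naming. The region at chromosome 4, 46770315 to 46770813, had heights of 12, 14 and 12 in the KCl libraries, and 17, 16 and 16 in the untreated libraries. The region at 46813076 to 46813575 had heights of 12, 13 and 12 in the KCl libraries, and 17, 24 and 16 in the untreated libraries. Both were below the height filter, and without that filter limma gave adjusted p = 0.949 for each.

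Over the 19 shared regions the mean height was 29.2, 23 and 16.8 in the KCl libraries, and 27.3, 33.1 and 25.4 in the untreated libraries. Divided by the mean over all shared regions of the same library, these were 0.835, 0.862 and 0.882 with KCl, and 0.886, 0.955 and 0.923 untreated. The ratio was thus lower in each KCl library than in each untreated library, with a mean difference of -0.0621, and the nearest values lay close together. The difference was -0.0366 without untreated library 2. The regions were chosen with earlier results known, so this ratio has no test. Without the Gabbr2 regions it was 1.01, 0.985 and 0.912 with KCl, and 1.02, 1.05 and 0.995 untreated, and the groups overlapped.

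Other genes of GABA and glutamate transmission, in lists that were likewise chosen with earlier results known, gave 0 passing regions too. The 26 genes of GABA synthesis, transport and inhibitory synapses held 115 regions (4.90 per 100 kb). Of these, 12 were tested, with 0 higher and 0 lower and a median relative log2 change of 0.09. The region-rich members included Kcnj6, a potassium channel gene opened through GABA-B receptors, with 28 regions, and Abat, which encodes the GABA-degrading transaminase, with 15. The 24 glutamate receptor genes held 314 regions (4.36 per 100 kb), beside 3.91 for the 9 GABA receptor genes, and 53 were tested, with 0 higher and 0 lower and a median of -0.03. Over all protein-coding genes the density was 6.67 regions per 100 kb. These densities are not matched for gene length, and no difference between the lists, or from all protein-coding genes, was tested.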

How the data were processed

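5mC enrichment was measured by MeDIP-seq in 3 KCl and 3 untreated libraries. Libraries and read analysis came from a service company, per the labels' protocols. BWA, SICER and mm10 are named without versions in the submitters' processing notes. The sources used here give neither caller settings nor read totals, so no counting interval is printed. The authors deposited 13 tracks, per the file headers: called intervals and summit heights per library, and active regions over all libraries. Whether this height signal was scaled between libraries is not stated. Track names give the group but not the replicate number, so libraries were numbered in header order.

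Each region took its highest summit per library. Regions called in all 6 libraries whose mean height reached the 25th percentile entered limma 3.58.1 (R 4.3.3) as log2(height + 1), with an intensity trend and Benjamini-Hochberg adjustment over all regions, two-sided, threshold 0.05. The script was tested on simulated data with larger changes than those reported here. That test does not tell how small a change the fit can find. Libraries of the same header order correlated in their deviations from the group means at 0.113, 0.108 and 0.114, each over 0.1. KCl and untreated libraries of different order correlated at -0.0882 to -0.0137. Deviations within a group cancel out, so these negative values follow from the positive ones and are no separate sign of pairing. By the limit of 0.1, libraries of the same order were treated as pairs in an alternative fit.

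The genes, lists and tests were chosen with earlier results of these data known. Named by rule were each gene's highest region, its tested region with the lowest p, regions within 1 kb of a gene end, and regions called in all libraries of a single group. Highest refers to the mean height over the libraries that called a region. Promoter sequences are RefSeq's (GRCm38.p6). Region sequences were not analysed here, and some neighbouring and related genes are not reported here. Tables were made with Python 3.11.15 and pandas 2.3.3.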

Additional observations from a re-analysis of the deposited data

How the results depend on the processing

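Under each alternative run, 0 regions of the whole table and 0 GABA receptor regions passed in either direction by limma. That held with a block for libraries of the same header order too, with and without median centring. Unadjusted, limma placed 0 regions above and 231 below at 0.05, and 1 and 509 with the block. After median centring these counts were 405 and 342, and 551 and 494 with the block. Without KCl library 1 they were 0 and 4325, and without untreated library 2 they were 2 and 40. The median relative log2 change of the tested GABA receptor regions was -0.10 with the block, as without it, and ranged from -0.16 to -0.05 without single libraries. The block changed no other call. Keeping as many of the highest intervals per library as the smallest library holds left 34 of the 85 regions, beside 58170 of all 133337. By construction fewer intervals are kept in this setting.

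Relative log2 changes near 0 turned in sign, and each turned value was smaller in size than its SE in the report. Without KCl library 3 they were 0.10 in Gabra2, 0.14 before Gabrb2 and 0.03 at the highest Gabrg3 region. Without untreated library 2 it was 0.10 before Gabrb2. Without untreated library 3 they were -0.0485 at the high Gabrb1 region and 0.0395 at the highest Gabrg3 region. With regions called in at least 2 libraries of each group it was -0.0325 at the high Gabrb1 region. The cause was not tested. Leaving out single libraries, the ranges were -0.226 to 0.0985 in Gabra2, -0.0485 to 0.112 at the high Gabrb1 region, -0.286 to 0.139 before Gabrb2, -0.228 to 0.0395 at the highest Gabrg3 region, -0.486 to -0.199 at the Gabbr2 region with the lowest p and -0.251 to -0.0996 at the highest Gabbr2 region. Likewise leaving out single libraries, the number of regions was 75 to 85, their density 3.45 to 3.91 per 100 kb, the difference in called regions -23.3 to -5.33 the difference in mean height -8.69 to -1.94 and the difference in the height ratio to all shared regions -0.0809 to -0.0366. Read totals are unknown, so what depth adds to the low call rate of KCl library 3 was not tested.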
